A study of Mus musculus with 6 samples.

Results

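The collagen genes measured here are 44 of the 22180 genes that had a probe set with a single gene symbol. They were chosen by name, as every gene whose symbol is Col, a number, the letter a and a number, and each was read through the probe set with the highest mean signal over all arrays. By the structure of the protein they fall into 11 fibrillar, 6 basement membrane, 9 fibril-associated, 4 transmembrane and 14 other collagens. RNA came from the hippocampus of male mice at postnatal day 21 and was read on Mouse Gene 2.0 ST arrays of Affymetrix, which cover each transcript with many probes. The 3 quadruple knockout mice carried Tnc -/-, Tnr -/-, Bcan -/- and Ncan -/- and so lacked the matrix proteins tenascin-C, tenascin-R, brevican and neurocan, while the 3 wildtype mice carried none of these deletions. The methods call the animals siblings, and the labels call the arrays biological replicates without saying from which litters they came. The comparison asked how the transcripts of another class of matrix protein differ in a brain that has lost these 4.

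Collagens are matrix proteins built from chains that wind around each other into a rope-like helix. Fibrillar collagens pack into the fibres of connective tissue, basement membrane collagens form the sheets beneath endothelial cells and around blood vessels, fibril-associated collagens coat and link fibres, and transmembrane collagens are anchored in the cell surface and can be shed from it. The matrix between neurons is poor in fibrillar collagen and rich in hyaluronan, lecticans and tenascins, and in the brain most fibrillar collagen belongs to the meninges, the choroid plexus and the walls of vessels, although neurons make some collagens of the other classes.

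Values are log2 signals, and differences are quadruple knockout minus wildtype. Errors are SD over 3 arrays or, for a difference, its standard error (SE). Groups were compared with limma, a linear model that borrows strength between probe sets to estimate their spread, two-sided, and p values were adjusted (Benjamini-Hochberg) over the whole table of 34472 probe sets. For any 1 gene, exact permutation of 3 against 3 arrays has a smallest two-sided p of 0.1. Background was set at 6.03, which 95% of 1108 probe sets for olfactory receptors, genes of the nose, did not exceed.

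The signal of Bcan was 5.78 ± 0.06 in knockout and 10.49 ± 0.17 in wildtype arrays (SD, n = 3 each), and Ncan fell by 5.14 on the log2 scale. The probe sets of Tnc (-0.15, limma adjusted p = 0.794) and Tnr (-0.10, limma adjusted p = 0.706) did not pass the test, and where their probes lie relative to the deletion was not used here. All 12 measured markers of hippocampal neurons were above background in all 6 arrays. Correlations between arrays lay between 0.993 and 0.996. The median signal of all probe sets was 6.30 to 6.33 in the knockout arrays and 6.34 to 6.39 in the wildtype arrays, and the upper quartile ran the other way, 8.42 to 8.43 against 8.35 to 8.41.

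No collagen gene passed the test between knockout and wildtype, and none differed by more than 1.5-fold. The 44 differences ran from -0.34 for Col5a2, a chain of the fibre-regulating collagen V, to 0.24 for Col19a1, a fibril-associated collagen made by neurons. Most of them were small and negative: 36 of 44 (81.8%) lay below 0, with a median of -0.07. Of all probe sets 51.5% lay below 0, with a median of -0.01. By limma 0 collagens reached an adjusted p of 0.05, against 0.139% of all probe sets, and the smallest adjusted p among them was 0.486. At an unadjusted limma p under 0.05, 6 collagens were lower in the knockout and 0 were higher, where 5.14% of all probe sets were lower and 3.91% higher. The 6 are Col1a1, Col5a2 and Col27a1 among the fibrillar collagens, Col4a3 among those of the basement membrane, and Col6a4 and Col6a6 among the others. The count of 6 became 3 when knockout replicate 3, wildtype replicate 1 or wildtype replicate 2 was left out, with Col27a1 among the lower genes each time, and Col4a3 too, whose signals were below background in all 6 arrays. Of the 35 collagens above background by their mean, 4 were lower and 0 higher at this threshold. Of all 19169 probe sets above background, 789 were lower and 946 higher. The study itself reported Col4a3 and Col27a1, with Col1a2, as significantly downregulated on these arrays, so they are not independent evidence of a direction. The study mentions no adjustment of these p values for the number of genes tested. An ordinary test, without shared spread, gave 0 collagens at an adjusted p of 0.05, against 0.0696% of all probe sets. Without adjustment it gave 4 lower and 0 higher among the 44 collagens. Of all 34472 probe sets it gave 1356 lower and 1456 higher, 8.16% in either direction. For Col4a3 and Col27a1 the unadjusted p of the ordinary test was 0.00135 and 0.00984, close to the values the study printed. Its adjusted p was 0.320 and 0.516. For these genes the study's call and the adjusted result here thus differ in the threshold applied. In the same 6 genes the 3 knockout arrays all lay below the 3 wildtype arrays, and in 1 gene, Col19a1, they all lay above, against 7.39% and 7.94% of all probe sets, and 8.86% and 7.63% of those in the signal range of the collagens.

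**Figure D1:**
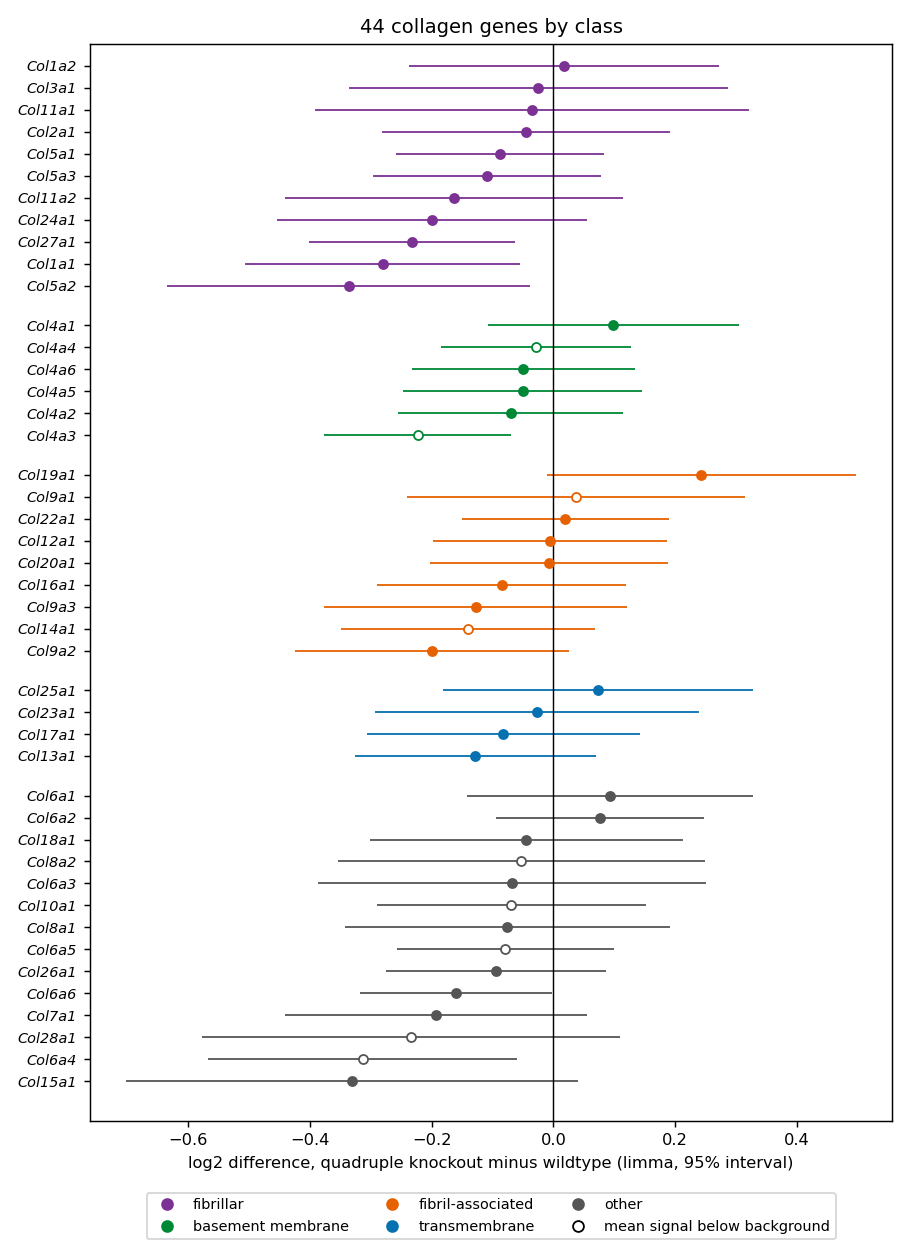
Log2 difference, quadruple knockout minus wildtype, of each of the 44 collagen genes, by class, with its 95% interval from limma. Of the differences 36 lie left of 0, and the 6 genes whose interval lies wholly below 0 are spread over 3 of the 5 classes.

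The share below 0 has to be read against signal, because dim and bright probe sets were shifted in opposite directions between the genotypes. Collagens were dim to moderate on these arrays, with means from 5.36 for Col14a1 to 8.78 for Col25a1. Between a signal of 6 and 7, 65.3% of all 5397 probe sets lay below 0, with a median of -0.05, and so did 21 of 24 collagens, with a median of -0.07. In the band from 5 to 6 the figures were 67.4% of 6418 probe sets, with a median of -0.06, and 7 of 8 collagens, with a median of -0.11. In both bands the collagens lay on the side on which most probe sets of like signal lay. Between 7 and 8, where 46.9% of 3961 probe sets were below 0 and their median was 0.01, 8 of 11 collagens were below 0 and their median was -0.09. Over the whole signal range of the collagens 56.3% of 16220 probe sets lay below 0, and at an unadjusted limma p under 0.05 6.58% were lower and 4.36% higher. How much of the collagens' shift the offset between the genotypes makes up was not tested. When quantile normalization, median centring or cyclic loess normalization was applied, 27, 25 or 28 of the 44 lay below 0, with medians of -0.03, -0.02 and -0.03. Of all probe sets 50.1%, 35.8% and 49.7% then lay below 0, with medians of 0.00, 0.05 and 0.00.

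**Figure D2:**
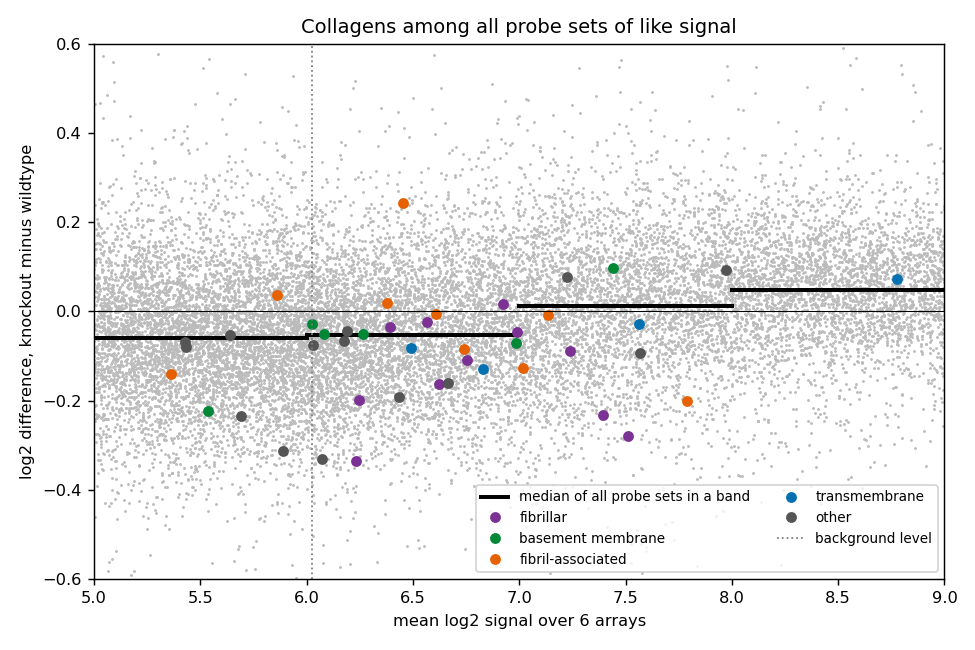
Log2 difference, quadruple knockout minus wildtype, against the mean log2 signal over 6 arrays for the 44 collagens (coloured by class) and for all probe sets with a mean between 5 and 9 (grey). Black bars give the median difference of all probe sets in each band of signal, -0.06, -0.05, 0.01 and 0.05 from left to right, and the dotted line marks the background level of 6.03; probe sets beyond a difference of 0.6 fall outside the plot.

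Above background by their mean were 35 of the 44 collagens, and 28 were so in all 6 arrays. All 11 fibrillar and all 4 transmembrane collagens were among the 35, with 4 of 6 basement membrane, 7 of 9 fibril-associated and 9 of 14 other collagens. Another 6 collagens were above background in no array. A knockout array had 32 or 33 collagens above background, and a wildtype array between 34 and 38.

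Among the fibrillar collagens, 10 of 11 differences were below 0, with a median of -0.11 that stayed below 0 under all 3 scalings (-0.08 after quantile normalization, -0.06 after median centring, -0.09 after cyclic loess). Col1a1 (probe set 17255260), the major chain of collagen I, the main collagen of meninges, skin and bone, read 7.44, 7.36 and 7.33 in the knockout arrays and 7.84, 7.59 and 7.53 in the wildtype arrays. Every knockout array lay below every wildtype array, with wildtype replicate 1 standing highest. The difference was -0.28 (SE 0.10, limma adjusted p = 0.509), or 1.21-fold lower. Col27a1 (probe set 17414672), a fibrillar collagen of developing cartilage, read 7.22, 7.34 and 7.27 in the knockout and 7.55, 7.55 and 7.44 in the wildtype. The groups were apart here too, with an SD of 0.06 in each. Its difference was -0.23 (SE 0.07, limma adjusted p = 0.486). Col5a2 (probe set 17222719), a chain of collagen V, which sets the width of collagen I fibres, read 6.22, 6.20 and 5.77 in the knockout and 6.43, 6.46 and 6.32 in the wildtype. Knockout replicate 3 alone was below background and stood far below the other arrays. The difference of -0.34 (SE 0.13, limma adjusted p = 0.527) became -0.19 without that array.

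Col1a2 makes the chain that pairs with that of Col1a1 in collagen I, and its 2 probe sets gave different pictures. The brighter one read 7.01, 6.85 and 6.93 in the knockout and 7.06, 6.99 and 6.70 in the wildtype. The groups overlapped, wildtype replicate 3 was the lowest of all 6 arrays, and the difference was 0.02 (95% interval -0.24 to 0.27, limma adjusted p = 0.973). The dimmer one read 3.79, 3.66 and 3.69 in the knockout and 4.06, 4.11 and 4.19 in the wildtype. These groups were apart (-0.41, SE 0.07, limma adjusted p = 0.245), but all 6 signals were far below background, so no change in the amount of transcript can be read from them. The transcripts of collagen I thus differed by -0.28 through Col1a1 and by 0.02 through the brighter probe set of Col1a2. The study reported Col1a2 as downregulated without naming a probe set. By the ordinary test the unadjusted p was 0.00171 for the dimmer probe set, 1.33-fold lower, and 0.893 for the brighter one. For the other 7 fibrillar genes the groups overlapped. Col24a1 (-0.20), Col11a2 (-0.16), Col5a3 (-0.11), Col5a1 (-0.09), the cartilage collagen Col2a1 (-0.05), Col11a1 (-0.04) and Col3a1 (-0.02), whose product accompanies collagen I in vessel walls, all had limma adjusted p between 0.620 and 0.968. The other probe set of Col5a1, which is dimmer, gave -0.26 (limma adjusted p = 0.689).

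**Figure D3:**
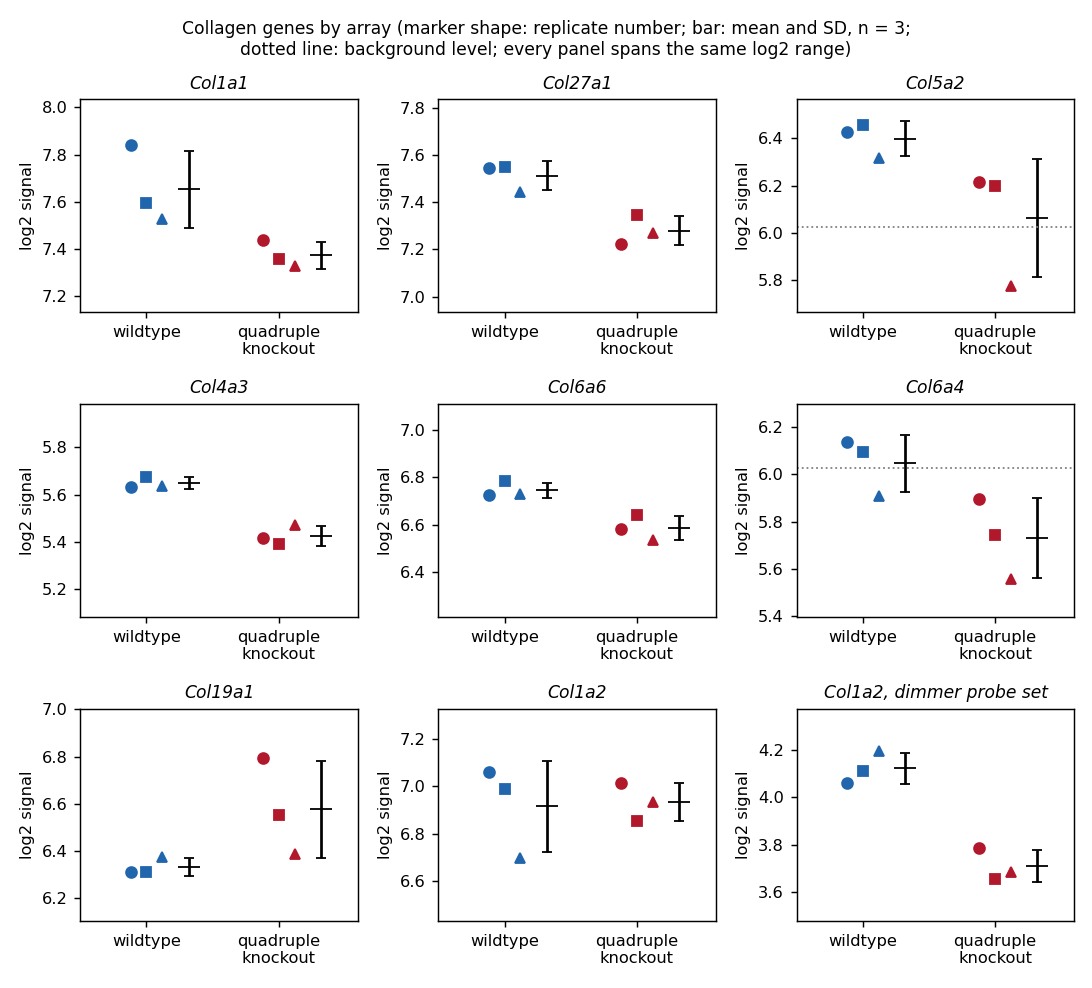
Log2 signal in each of the 3 quadruple knockout and 3 wildtype arrays for 8 collagen genes, Col1a2 through both of its probe sets, with the group mean and SD as bars and the background level as a dotted line; every panel spans the same log2 range. The groups do not overlap, with the knockout lower, in Col1a1, Col27a1, Col5a2, Col4a3, Col6a4, Col6a6 and the dimmer probe set of Col1a2, and with the knockout higher in Col19a1.

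To show what lies upstream of genes at the low end, the 250 bases before the start site are printed for the 3 of the 6 lower genes that have an entry in the RefSeq promoter table (build GRCm38.p6), with Col1a2 as the partner of Col1a1. Capitals mark a GC box (GGGCGG, or CCGCCC on the other strand) or a CCAAT box (CCAAT, or ATTGG). Col1a2 lies on the plus strand at chr6:4505368-4505617, Col27a1 on the plus strand at chr4:63215162-63215411, Col6a4 on the minus strand at chr9:106096692-106096941 and Col6a6 on the minus strand at chr9:105828086-105828335.
Col1a2: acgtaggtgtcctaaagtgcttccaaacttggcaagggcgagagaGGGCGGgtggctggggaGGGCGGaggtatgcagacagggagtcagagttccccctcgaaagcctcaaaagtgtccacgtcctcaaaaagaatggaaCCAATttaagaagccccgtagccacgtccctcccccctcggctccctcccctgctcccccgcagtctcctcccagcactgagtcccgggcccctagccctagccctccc
Col27a1: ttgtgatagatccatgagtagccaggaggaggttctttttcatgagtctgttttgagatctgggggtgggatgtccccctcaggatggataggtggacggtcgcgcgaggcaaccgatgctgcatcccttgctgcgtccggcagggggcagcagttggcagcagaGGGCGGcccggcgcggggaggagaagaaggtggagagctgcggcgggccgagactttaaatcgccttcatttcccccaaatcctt
Col6a4: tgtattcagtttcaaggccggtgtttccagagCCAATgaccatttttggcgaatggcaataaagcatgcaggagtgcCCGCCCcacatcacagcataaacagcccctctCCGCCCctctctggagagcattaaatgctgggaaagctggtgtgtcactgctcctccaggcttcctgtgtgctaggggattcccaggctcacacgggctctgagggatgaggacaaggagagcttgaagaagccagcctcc
Col6a6: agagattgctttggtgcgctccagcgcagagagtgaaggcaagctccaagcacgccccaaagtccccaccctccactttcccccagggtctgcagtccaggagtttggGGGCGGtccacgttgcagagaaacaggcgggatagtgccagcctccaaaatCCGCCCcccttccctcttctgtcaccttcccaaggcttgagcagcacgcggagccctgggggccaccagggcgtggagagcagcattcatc

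Each of the 4 holds at least 1 GC box, and Col1a2 and Col6a4 hold a CCAAT box as well, 109 and 218 bases before the start. The TATA box in its letters TATAAA (or TTTATA) is in none of the 4. In all, 35 of the 44 collagen genes matched the table, with 38 windows. A GC box was found in 22 of these 38 (57.9%) and in 32.7% of 32851 windows of all genes, a CCAAT box in 13 (34.2%) against 33.8%, and TATAAA in 5 (13.2%) against 12.4%. A match of letters is a description and not a site of binding, and windows of one gene can overlap.

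Of the basement membrane collagens, 5 of 6 differences lay below 0, with a median of -0.05, which became 0.01, 0.00 and 0.00 after quantile normalization, median centring and cyclic loess. Col4a1 and Col4a2 make the chains of the collagen IV network of nearly all vessels. Col4a1 read 7.46, 7.38 and 7.63 in the knockout and 7.45, 7.32 and 7.40 in the wildtype, and Col4a2 6.83, 6.98 and 7.04 against 7.07, 6.99 and 7.01. In both genes the groups overlapped, and knockout replicate 3 gave the highest knockout value of each. The differences were 0.10 for Col4a1 (95% interval -0.11 to 0.30, limma adjusted p = 0.755) and -0.07 for Col4a2 (95% interval -0.25 to 0.11, limma adjusted p = 0.807). Col4a3 (probe set 17214771), a chain of the network of kidney and inner ear, read 5.41, 5.39 and 5.47 in the knockout and 5.63, 5.68 and 5.64 in the wildtype. The groups of signals did not overlap (-0.22, SE 0.07, limma adjusted p = 0.486). All 6 arrays were below background, though, so this is a difference between background-level signals, from which no change in the amount of transcript can be read. Its partner chain Col4a4 read 6.07, 5.99 and 5.97 in the knockout and 6.03, 6.03 and 6.05 in the wildtype, close to background. Its groups overlapped (-0.03, limma adjusted p = 0.910), and the sign turned under each of the 3 scalings. Col4a5 and Col4a6 both differed by -0.05.

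The fibril-associated collagens held the gene with the largest positive difference, and 6 of 9 differences lay below 0, with a median of -0.01. That median was 0.00, 0.05 and 0.00 after quantile normalization, median centring and cyclic loess. Col19a1 read 6.79, 6.55 and 6.39 in the knockout and 6.31, 6.31 and 6.38 in the wildtype. The groups were barely apart, since knockout replicate 3 exceeded wildtype replicate 3 by less than the spread within either group, and knockout replicate 1 stood well above the rest. The difference was 0.24 (SE 0.11, limma adjusted p = 0.564). Col9a2, a chain of the cartilage and eye collagen IX and the brightest of this class, read 7.80, 7.65 and 7.61 in the knockout and 7.95, 7.98 and 7.73 in the wildtype. The groups overlapped through wildtype replicate 3, and the difference was -0.20 (SE 0.10, limma adjusted p = 0.583). Col9a3, another chain of collagen IX, differed by -0.13, and the remaining chain, Col9a1, below background by its mean, by 0.04. Col14a1 (-0.14, also below background), Col16a1 (-0.09), Col20a1 (-0.01), Col12a1 (-0.01) and Col22a1 (0.02) all had limma adjusted p of 0.661 or above.

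All 4 transmembrane collagens were above background in every array, and 3 of the differences were below 0, with a median of -0.05 (-0.04, -0.00145 and -0.04 under the 3 scalings). Col25a1, a collagen of neurons whose shed part is found in amyloid plaques, was the collagen with the brightest probe set. It read 9.01, 8.81 and 8.63 in the knockout and 8.84, 8.68 and 8.71 in the wildtype. The highest and the lowest of its 6 values were both knockout arrays, and the difference was 0.07 (95% interval -0.18 to 0.33, limma adjusted p = 0.861). Col13a1, a collagen of the neuromuscular junction, read 6.76, 6.85 and 6.69 in the knockout and 6.90, 6.996 and 6.78 in the wildtype. Its groups overlapped (-0.13, SE 0.08, limma adjusted p = 0.674). Col17a1, a component of the junctions that hold skin to its basement membrane, differed by -0.08 and Col23a1 by -0.03.

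Of the 14 other collagens, 12 differences lay below 0, with a median of -0.08 (-0.02 under each of the 3 scalings). Collagen VI, a beaded filament around cells, is made by 6 of these genes. Col6a1 and Col6a2, its chains with the brightest probe sets, were the 2 genes of this class above 0, at 0.09 and 0.08. Col6a1 read 8.04, 7.999 and 8.01 in the knockout and 7.91, 7.75 and 8.11 in the wildtype, so that the 3 knockout arrays fell inside the range of the wildtype (limma adjusted p = 0.799). Its dimmer probe set, below background in all arrays, differed by 0.02. Col6a6 (probe set 17530503) read 6.58, 6.64 and 6.54 in the knockout and 6.73, 6.78 and 6.73 in the wildtype. The groups were apart, by -0.16 (SE 0.07, limma adjusted p = 0.550). Col6a4 (probe set 17530579) read 5.90, 5.75 and 5.56 in the knockout and 6.14, 6.09 and 5.91 in the wildtype. No knockout array and 2 wildtype arrays were above background. The measured difference was -0.31 (SE 0.11, limma adjusted p = 0.509). With the knockout signals set to background, the wildtype mean was only 1.01-fold higher, so no smallest fall can be read from it. Col6a3 and Col6a5 differed by -0.07 and -0.08, Col6a5 below background.

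Col15a1, a collagen that links basement membranes to the fibres beside them, had the largest negative difference of the other collagens. It read 5.94, 6.11 and 5.67 in the knockout and 6.54, 6.11 and 6.07 in the wildtype. Knockout replicate 2 lay level with wildtype replicate 2, so the groups overlapped by a narrow margin, and the difference was -0.33 (SE 0.16, limma adjusted p = 0.582). Col18a1, its relative and the source of endostatin, differed by -0.04. After Col15a1 and Col6a4 the next in size were Col28a1 (-0.23, below background by its mean) and Col7a1 (-0.19), the collagen of the anchoring fibrils of skin, with limma adjusted p of 0.659 and 0.622. Col26a1 (-0.09), Col8a1 (-0.08), Col10a1 (-0.07) and Col8a2 (-0.05) all had overlapping groups.

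Averaged over the 44 genes, the collagens had means of 6.56 in the knockout and 6.65 in the wildtype. The full range of the 3 wildtype arrays was wider than the distance between these means. Single knockout arrays lay at 6.52 to 6.58 and single wildtype arrays at 6.56 to 6.70. The wildtype range was the wider, with replicates 1 and 2 high and replicate 3 inside the range of the knockout. For the 11 fibrillar collagens the ranges met without overlap, 6.69 to 6.76 in the knockout and 6.77 to 6.96 in the wildtype. In the basement membrane (6.33 to 6.40 against 6.40 to 6.44), fibril-associated (6.50 to 6.62 against 6.53 to 6.65), transmembrane (7.32 to 7.44 against 7.30 to 7.53) and other collagens (6.23 to 6.28 against 6.28 to 6.42) the ranges overlapped. Wildtype replicate 3 was the lowest wildtype array in each of the 5 classes, and knockout replicate 3 was the lowest knockout array in 4 of them, the exception being the basement membrane.

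**Figure D4:**
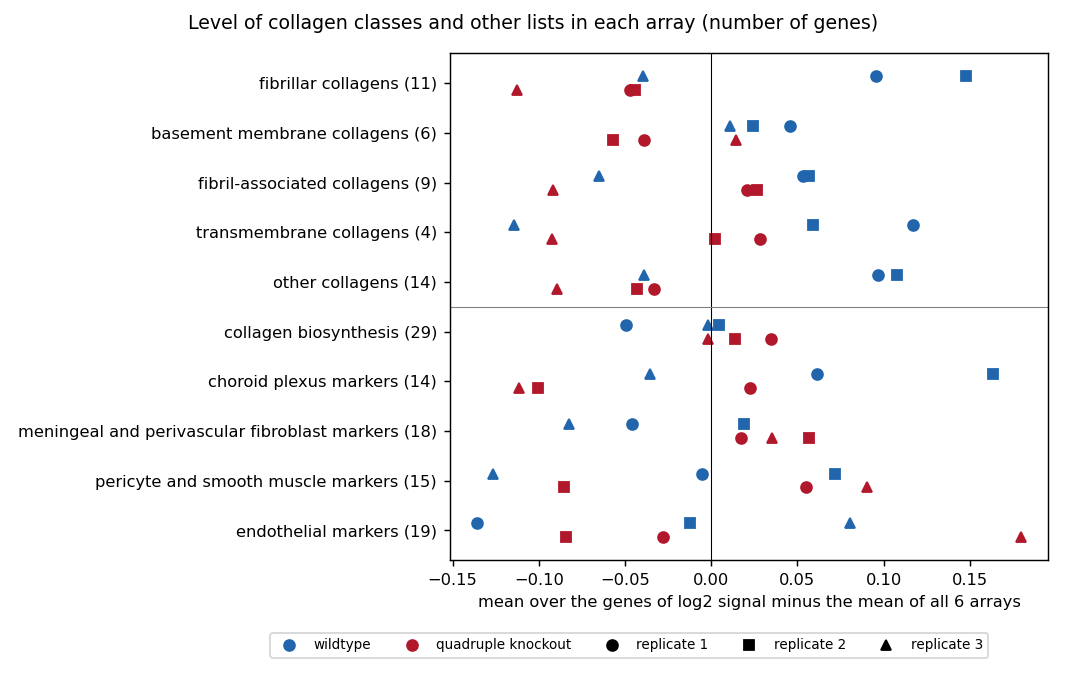
Mean over the genes of each class or list of the log2 signal minus the mean of all 6 arrays, in each array, with the number of genes in parentheses. The fibrillar collagens range from -0.11 in knockout replicate 3 to 0.15 in wildtype replicate 2, and the choroid plexus markers from -0.11 to 0.16 in the same arrays.

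Several collagen genes lie next to each other in the genome, and 8 pairs are direct neighbours in the order of protein-coding genes (GRCm38.p6). In 7 of the 8 pairs both differences had the same sign. On chromosome 1, Col3a1 (-0.02) lies beside Col5a2 (-0.34), Col4a4 (-0.03) beside Col4a3 (-0.22) and Col9a1 (0.04) beside Col19a1 (0.24). Col6a2 (0.08) and Col6a1 (0.09) are neighbours on chromosome 10, and Col6a6 (-0.16), Col6a5 (-0.08) and Col6a4 (-0.31) follow each other on chromosome 9, while Col4a6 and Col4a5, at -0.05 each, lie side by side on the X chromosome. The exception in sign was Col4a1 (0.10) and Col4a2 (-0.07), which start 21 bases apart on opposite strands and whose promoter windows share 78 bases. Since 36 of 44 differences had one sign, a shared sign is the usual case for any pair of collagens.

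The enzymes and chaperones that make collagen lay close to 0 as a group. Of 34 genes listed for collagen biosynthesis 29 were measured, with a median of 0.03 (0.02, 0.08 and 0.02 under the 3 scalings). Without adjustment, 3 had a limma p under 0.05, all of them higher in the knockout, where the shares of all probe sets were 3.91% higher and 5.14% lower. Serpinh1, the chaperone specific to collagen in the endoplasmic reticulum, read 7.97, 7.80 and 7.96 in the knockout and 7.63, 7.64 and 7.54 in the wildtype. All 3 knockout arrays were above all 3 wildtype arrays, by 0.31 (SE 0.08, limma adjusted p = 0.445). Tll1, a protease that trims procollagen, differed by 0.22 (limma adjusted p = 0.527), and Adamts3, another, by 0.17 (limma adjusted p = 0.540). None passed the adjusted p of 0.05, as held for each gene named from these lists.

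Of the collagen receptors 11 of 12 were measured, with a median of 0.08 (0.14, 0.14 and 0.14 under the 3 scalings), and at an unadjusted p under 0.05 there were 2 higher and 1 lower, against 3.91% and 5.14% of all probe sets; the same shares apply to the counts of the next lists. Itgb1, the shared beta chain of the collagen-binding integrins, differed by 0.22 (limma adjusted p = 0.509), Adgrg1, an adhesion receptor that binds collagen III in the developing brain, by 0.26 (limma adjusted p = 0.486) and the integrin chain Itga11 by -0.25 (limma adjusted p = 0.514). Of 18 genes of collagen degradation, 1 was higher and 2 were lower, with a median of -0.01 that turned to 0.04 after median centring. The membrane collagenase Mmp14 differed by 0.25 (limma adjusted p = 0.499) and the collagen-cleaving cathepsin Ctsk by -0.29, while Mmp1b was below background. Of 26 partners of collagen fibrils and basement membranes 25 were measured, 2 were higher and 0 lower (3.91% and 5.14% of all probe sets), and the median was 0.04. Dcn, decorin, a proteoglycan that binds collagen fibrils, read 8.92, 8.49 and 10.31 in the knockout and 7.91, 8.18 and 7.72 in the wildtype. The groups were apart, but knockout replicate 3 stood far above the rest, and the difference of 1.31 (SE 0.42) had a limma adjusted p of 0.499. Lama2, a laminin chain, differed by 0.25.

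In RNA of a whole tissue, fewer cells of a type and less RNA per cell cannot be told apart, so markers of the cells that make collagen are given beside the collagens. Of 18 markers of meningeal and perivascular fibroblasts 1, Dcn, was higher without adjustment (limma p under 0.05) and 0 were lower, against 3.91% and 5.14% of all probe sets, with a median of 0.02. Their mean signal was 7.04 to 7.08 in the knockout and 6.94 to 7.05 in the wildtype, a difference of 0.07 between the group means that Dcn alone carried. For the other 17 the mean signal was 6.87 to 7.001 in the knockout and 6.90 to 6.98 in the wildtype, with the group means at 6.93 in both. Foxd1 and Slc22a2 were above background in no array. Choroid plexus markers lay mostly below 0, as the collagens did. The median signal of the 14 measured was 5.87, and of all probe sets with a signal between 5 and 6, 67.4% lay below 0. Of the 14 measured, 12 differences lay below 0, with a median of -0.10 (-0.06, -0.05 and -0.05 under the 3 scalings), 0 were higher and 1, Tmem72, which was below background in all arrays, was lower, against 3.91% and 5.14% of all probe sets. Their mean signal was 6.01 to 6.14 in the knockout and 6.08 to 6.28 in the wildtype, highest in wildtype replicates 2 and 1 and lowest in knockout replicate 3, as for the fibrillar collagens. Ttr, transthyretin, the main secreted product of the choroid plexus, read 8.38, 7.44 and 7.38 in the knockout and 8.42, 8.94 and 7.77 in the wildtype. These groups overlapped (-0.64, limma adjusted p = 0.62), and 7 of the 14 markers, with Otx2 and Cldn2 among them, were above background in no array. The part of choroid plexus RNA in the collagens' differences was not tested.

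Markers of the vessel wall had medians above 0, here and under the 3 scalings. Their median signal was 7.19 for pericytes and smooth muscle and 7.95 for endothelium. All probe sets had a median difference of 0.01 between a signal of 7 and 8 and of 0.05 between 8 and 9. Of 15 pericyte and smooth muscle markers 1, Cspg4, was higher and 1, Tagln, lower, with a median of 0.06, and of 19 endothelial markers 2, Kdr and Slco1c1, were higher and 1, the glucose transporter Slc2a1, lower, with a median of 0.05; of all probe sets 3.91% were higher and 5.14% lower. Knockout replicate 3, the lowest array for the fibrillar collagens, was the highest for both of these lists. Among 10 astrocyte, 9 oligodendrocyte lineage, 9 microglia and 12 hippocampal neuron markers, 0 had an unadjusted limma p under 0.05, and their medians lay between -0.04 and 0.02; the signs of the astrocyte, oligodendrocyte and microglia medians turned under at least 1 scaling. Of 9 interneuron markers 3 were higher and 0 lower, against 3.91% and 5.14% of all probe sets, with a median of 0.17, and their mean signal, 9.42 to 9.51 in the knockout and 9.21 to 9.27 in the wildtype, did not overlap.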

How the data were processed

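RNA of 6 hippocampi was measured on 6 arrays. The authors normalized the arrays by RMA and deposited log2 signals, 34472 per array; the submitters' processing notes name Affymetrix Expression Console, RMA and Transcriptome Analysis Console. Software versions and genome build: not given in the sources used here. RMA brings arrays to one distribution and can shrink shifts shared by many probe sets. Precision is limited by the number of arrays. P-values set the difference of the groups against the spread between arrays within a group, which limma partly shares between probe sets. The legend of the study's heat map calls the samples dependent ones, from siblings. The main test treated the arrays as independent.

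Names come from the annotation of the platform: 23521 have 1 symbol, 1820 several and 9131 none, and only those with 1 were named. The symbols gave 47 collagen probe sets, 3 genes having more than 1; 1 further probe set carries a collagen symbol among others and was not used, and 1 collagen of the class list, Col21a1, had no probe set here. Groups follow the labels. Under R 4.3.3, lmFit and eBayes of limma 3.58.1 were run without a block, after the code was tested on simulated data. The ordinary test stands for the Anova of the methods, whose form they do not give. Lists carry counts and medians with no test of their own. Figures were drawn with matplotlib 3.10.9.

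Values in every array were given for collagens at an unadjusted p under 0.05 and those the study names for the array. They were also given for the brightest gene and the largest rise and fall of each class, and for partner chains. In other lists, except the interneuron markers, up to 4 members with an unadjusted p under 0.05 were named. Of these lists only Serpinh1, Dcn and Ttr have values in every array, and Ttr was not picked by its p. The members, classes and lists were chosen with earlier results of these data known. Alternatives were quantile normalization, median centring, array weights, robust variances with an intensity trend, a replicate block, leaving out dim probe sets, averaging the probe sets of a gene, Tukey biweight averages, the ordinary test and each array left out; cyclic loess, the dimmer probe sets and fibroblast markers without Dcn were added after seeing the data. Scanner files were not used here, so the background correction was not varied.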

Additional observations from a re-analysis of the deposited data

How the results depend on the processing

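Under all 16 alternatives 0 collagens passed an adjusted p of 0.05. The number at an unadjusted limma p under 0.05, 6 in all arrays, lay between 3 and 7 when 1 array was left out. It was 3 without knockout replicate 3 (Col27a1, Col4a3 and, higher, Col19a1), without wildtype replicate 1 (Col27a1, Col4a3, Col28a1) and without wildtype replicate 2 (Col1a1, Col27a1, Col4a3); the cause was not tested beyond the smaller number of arrays. Quantile normalization gave 3 lower and 1 higher, where the deposited values gave 6 and 0. Median centring and cyclic loess (chosen after seeing the data) gave 5 lower and 1 higher each. The share of all probe sets at this threshold was worked out for the ordinary test (8.16% in either direction) but under no other alternative, the replicate block included. Whether the counts under those other alternatives depart from it is therefore not known. The 6 lower genes stayed below 0 in each alternative in which they were tested. That outcome was largely fixed beforehand, because in all 6 every knockout array lay below every wildtype array. Leaving out or weighting arrays could therefore not turn a sign, and several settings reuse the same difference. The tallies below apply the threshold that picked these genes to the same arrays again, so they are not independent support. Col27a1 had an unadjusted p under 0.05 in 14 of 15 alternatives with a p, Col4a3 (below background in all arrays) in 13 of 14, Col1a1 in 12 of 15, Col5a2 in 10 of 15, Col6a4 in 10 of 14 and Col6a6 in 5 of 15. Col19a1, higher in the knockout and not under 0.05 in the main test, had one in 6 of 15.

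The median of the 44 collagens, -0.07, lay between -0.136 (without wildtype replicate 3) and -0.0528 when 1 array was left out, and the number below 0, 36, between 30 and 38. The fibrillar median stayed below 0 throughout, from -0.20 to -0.06; the fibril-associated median reached 0.02 without knockout replicate 3 and the transmembrane median 0.02 without wildtype replicate 1. Col4a4 turned to 0.0347, 0.0243 and 0.0291 after quantile normalization, median centring and cyclic loess. Col1a2 turned to -0.198 with the mean of its probe sets, -0.0705 with Tukey biweight averages and -0.413 with its dimmer probe set, and ranged from -0.0918 to 0.0899 with 1 array left out; Col25a1 then ranged from -0.0234 to 0.167.

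Deviations of same-numbered arrays from their group means correlated at -0.03, -0.22 and -0.12, and 0 of 6 arrays matched its own number best. Deviations within a group sum to 0 for each probe set, so these correlations are tied to each other. Whether same-numbered animals shared a litter or batch cannot be read from them, and the labels do not say what the numbers mark. With the replicate number as a block, 7 collagens had an unadjusted p under 0.05, all lower, 5 of the 6 among them with Col15a1 and Col28a1, and 36 lay below 0. Signals below background limit what can be said of 9 collagens, Col4a3 and Col6a4 among them.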
